A study of Mus musculus with 6 samples.

Results

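The 10 genes described here belong to the BCL2 family, which decides at the outer membrane of the mitochondrion whether a cell survives or dies. They were chosen by name from the deposited count table, and all 10 were found among its 15861 genes: the survival genes Bcl2, Bcl2l1, Mcl1, Bcl2a1b and Bcl2a1d, the BH3-only death genes Bcl2l11, Bbc3 and Pmaip1, and the effectors Bax and Bak1. All 10 passed the filter on low counts, which left 10926 genes for testing. Polyadenylated RNA had been sequenced from germinal centre B cells of C57BL/6 mice, sorted as B220+, GL7+ and FAS+. The 6 mice were littermates. In WT, 3 carried floxed Lsd1 alleles (Lsd1 f/f) without Cre. In KO, 3 carried these alleles together with 1 Cre allele (Cgamma-cre+/-), so both groups carried the floxed gene and only KO carried Cre. Cgamma-cre is a Cre that acts in B cells during an immune response. No mouse with Cre and without floxed Lsd1 was analysed here, and the labels give neither the age of the animals nor how they were immunised. Lsd1, now named Kdm1a, encodes a histone demethylase of repressor complexes.

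BAX and BAK, once active, form pores in the outer mitochondrial membrane, which releases cytochrome c and starts the caspase cascade. The survival proteins BCL2, BCL-XL, MCL1 and A1 hold BAX, BAK and the BH3-only proteins in check, and BH3-only proteins such as BIM, PUMA and NOXA are induced or released by stress and tip the balance towards death. Germinal centre B cells are prone to apoptosis. They keep BCL2 low, in part because BCL6 represses its gene, and depend largely on MCL1, whereas naive and memory B cells carry more BCL2.

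Kdm1a, the targeted gene, was read at 85.2 to 134 CPM in WT, against 81.9, 33.0 and 21.8 CPM in KO. CPM scale each count to the size of its library, here after TMM scaling, which evens out differences in library composition, unless said otherwise. As a share of the library total, the library labelled KO 1 held 87.5 CPM of Kdm1a, within the WT range of 78.9 to 135. On the TMM scale it lay just below every WT library. Whole-gene counts of the target thus do not clearly bear out that label. Loss of the floxed part alone cannot be read from such counts, and the label was not checked in another way. The log2 fold change of Kdm1a was -1.19 and did not pass (edgeR adjusted p = 0.393), but was -1.93 without that library and then passed (adjusted p = 0.0169). Each value of the KO group below includes this library unless stated. The KO libraries were the deeper ones, at 12.3 to 14.3 M counts against 3.39 to 5.52 M in WT, so depth and genotype cannot be told apart. The 15 listed germinal centre B cell markers together took 10400 to 14200 CPM of each library total, and 1 of them, Mef2b, was at 0 in 2 WT libraries and had at most 6 counts in any other.

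No member of the family passed the test of KO against WT over all genes. The largest difference was in Bcl2, whose mean was 2.05 ± 0.47 CPM in WT and 11.3 ± 10.6 in KO (SD, n = 3), and adjusted p values of the 10 members ran from 0.248 to 0.944 (edgeR quasi-likelihood test, Benjamini-Hochberg adjustment over all genes, threshold 0.05). Among all genes tested the share that passed was 0.0824%. By the same test 1 of the 10 members, Bcl2, had an unadjusted p under 0.05, and 12.6% of all genes did. DESeq2 called 1 member, again Bcl2, where it called 1.05% of its 12141 genes. Of the 10 log2 fold changes 5 lay above 0 and 5 below, with a median of 0.06 beside 0.01 over all genes tested. Without the library labelled KO 1 the counts were again 5 and 5 and no member passed. The WT and KO values did not overlap for 2 members, Bcl2 and Pmaip1, both higher in KO, and such separation in either direction was seen for 18.0% of all genes.

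**Figure D1:**
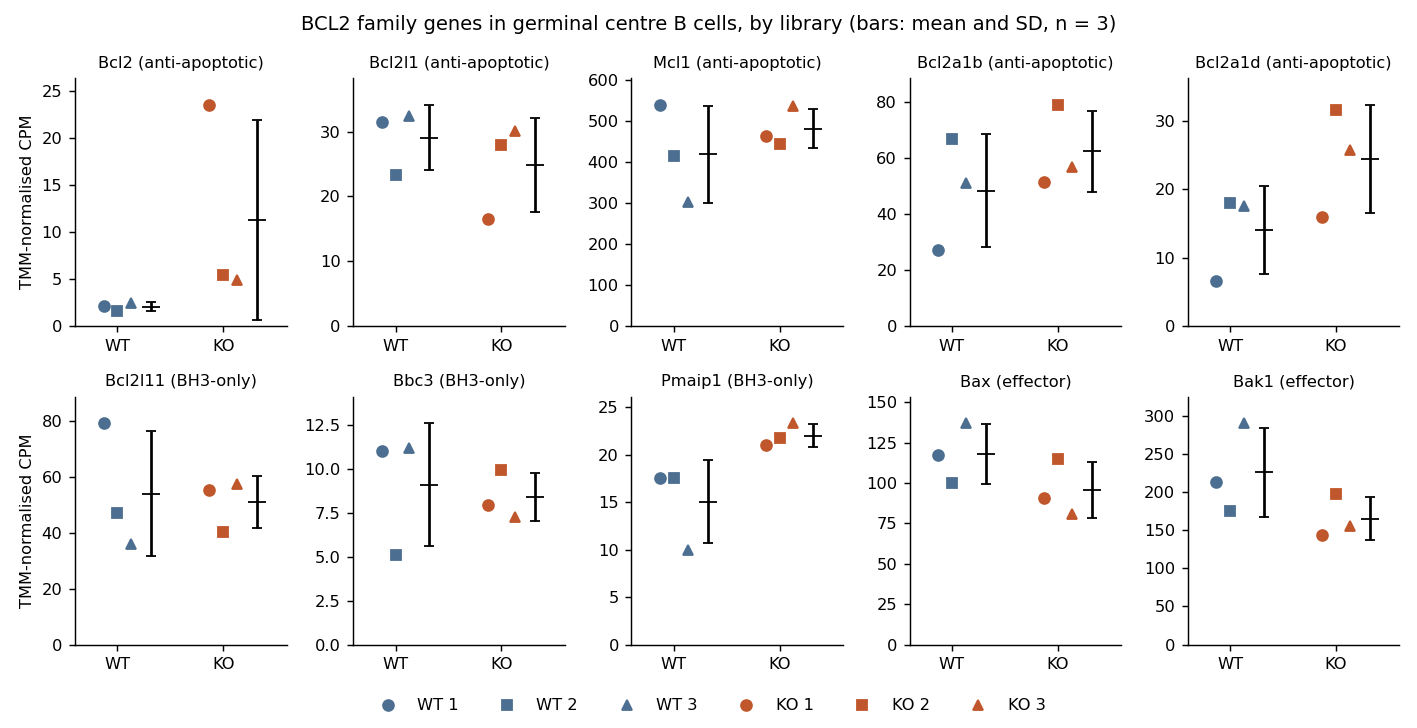
Level of each of the 10 genes in each library, in TMM-normalised CPM on axes that start at 0, with WT in blue, KO in orange and the mean and SD of the 3 libraries beside them. WT and KO are apart for Bcl2 and Pmaip1, and the library labelled KO 1 holds the highest Bcl2 value, at 23.5 CPM.

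Among the survival genes, Bcl2 itself stood out by its spread within KO. Bcl2 (chromosome 1, 106538178 to 106714274, minus strand, mm10) encodes the founding inhibitor of apoptosis of the family. It was read at 2.10, 1.56 and 2.49 CPM in WT and at 23.5, 5.43 and 4.86 CPM in KO. Every KO library lay above every WT library, and the library labelled KO 1 lay far above the other 2. The log2 fold change was 2.47 (SE 0.67, unadjusted 95% interval 0.95 to 3.98) and did not pass (edgeR adjusted p = 0.248). It was 1.33 without the library labelled KO 1 (edgeR adjusted p = 0.559), and DESeq2 put it at 2.43 (adjusted p = 0.0336).

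Each WT value of Bcl2 rested on 8 counts, against 309, 77 and 68 in KO. Exact 95% Poisson intervals, which cover counting error only, ran from 0.675 to 4.91 CPM over the WT libraries. Those of KO 2 (4.29 to 6.79 CPM) and KO 3 (3.77 to 6.16 CPM) overlapped the interval of WT 3 (1.08 to 4.91 CPM), while that of the library labelled KO 1 (20.9 to 26.2 CPM) lay clear of all others. With all libraries thinned to the smallest total, Bcl2 no longer passed the filter on low counts and was not tested. In the annotation an antisense gene, D630008O14Rik, covers 6.09% of the Bcl2 exon bases, and the strand setting of the counting is not given in the sources used here.

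On average, markers of other B cell stages were high in the same library as Bcl2. On a scale of log2 differences from the WT mean, Bcl2 was at 3.4, 1.33 and 1.18 in KO 1, 2 and 3. The 11 follicular naive B cell markers in the table averaged 1.04, 0.35 and 0.17 there, with WT libraries between -0.04 and 0.05. The 12 memory B cell markers averaged 1.37, 0.75 and 0.89, with WT between -0.03 and 0.02. Both lists were thus highest in the library labelled KO 1, and none of their listed genes was at 0 in any library. Summed over the list, on the scale of library totals, naive markers took 1250 to 1360 CPM in WT and 1300 to 1580 in KO, and memory markers 400 to 427 and 666 to 969. Plasma cell markers averaged 0.79, -0.09 and 0.69 in KO, so this list too was highest in the library labelled KO 1. For it, KO 2 lay just below the WT libraries (-0.06 to 0.10). Germinal centre markers averaged -0.43, -0.07 and -0.23 in KO and -0.26 to 0.23 in WT. Genes of that list differed in direction. As a share of the library total, Mki67 was at 2300 CPM in the library labelled KO 1, against 892 to 1160 in WT. Cd79b was at 1290 CPM in that library, against 2350 to 3080 in WT. The part that cells of other stages had in the Bcl2 values was not tested, and in bulk RNA more cells of a type and more RNA per cell cannot be told apart.

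**Figure D2:**
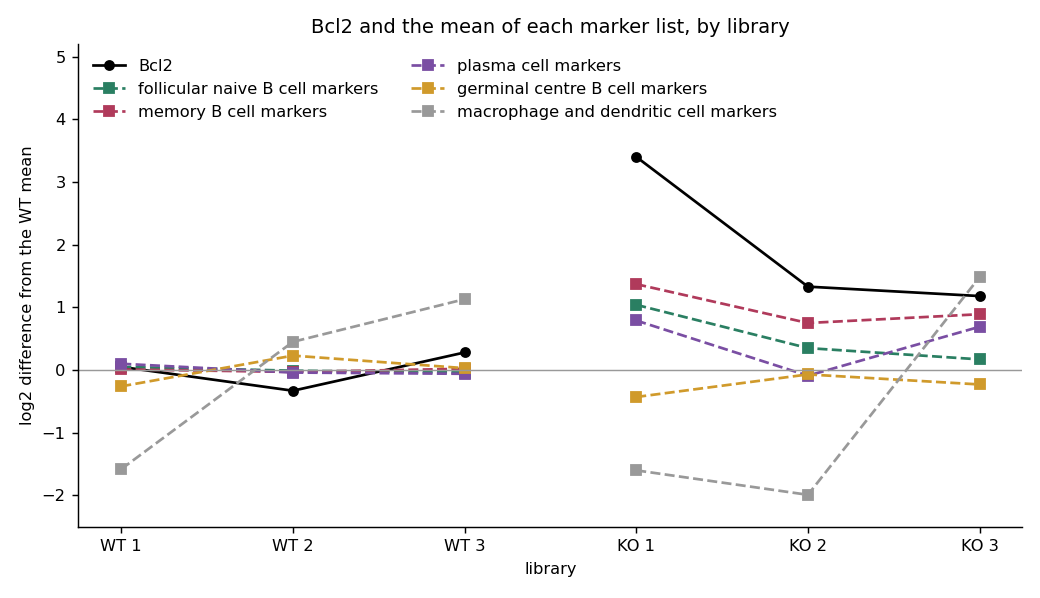
Log2 difference from the WT mean for Bcl2 (solid black line) and for the mean of each marker list (dashed lines) in the 6 libraries. Bcl2 and the naive, memory and plasma cell lists are all highest in the library labelled KO 1, at 3.4, 1.04, 1.37 and 0.79. The macrophage and dendritic cell list follows another order.

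The genes whose profile over the 6 libraries was most like that of Bcl2 included several with that same high value. Among 8378 genes with a mean log2 CPM of at least 3, Pearson's r of log2 CPM was highest for Tbx21, the transcription factor T-bet (r = 0.996), followed by Cd72 (0.994), an inhibitory B cell coreceptor, Gstt2 (0.991), Gimap3 (0.989) and S1pr1 (0.985), the receptor for lymphocyte egress. Tbx21 was at 7.62, 7.04 and 8.73 CPM in WT, against 66.4, 15.9 and 16.1 CPM in KO. For S1pr1 the WT values were 14.2, 11.3 and 12.5 CPM and the KO values 50.4, 19.9 and 17.7. In both, as in Bcl2, the library labelled KO 1 was highest and every KO library lay above every WT library. These genes were picked by their likeness to Bcl2 over the same libraries, so the shared order is no separate evidence. Over the 5 libraries without the library labelled KO 1, all of which also served to pick them, r for these 5 genes was 0.948 to 0.987. These correlations describe 6 libraries that also share a difference in depth, and S1pr1 belongs to the naive marker list.

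Mcl1 was the most abundant member, and its group means lay close together. It encodes a short-lived survival protein that germinal centre B cells need (chromosome 3, 95658788 to 95663176, plus strand). It was read at 539, 416 and 301 CPM in WT and at 463, 445 and 536 CPM in KO. The KO values all fell inside the WT range. The log2 fold change was 0.20 (SE 0.23, interval -0.31 to 0.71, edgeR adjusted p = 0.774). This interval corresponds to a KO level of 0.806 to 1.64 times that of WT. Within WT it varied more (SD 0.42 log2 units) than within KO (0.14).

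Bcl2l1, which encodes BCL-XL, was the only survival gene among the members with a lower mean in KO (chromosome 2, 152780668 to 152831728, minus strand). It was read at 31.5, 23.3 and 32.4 CPM in WT and at 16.5, 28.0 and 30.0 CPM in KO. The low value belonged to the library labelled KO 1, and the other 2 KO libraries lay among the WT values. The log2 fold change was -0.22 (SE 0.27, interval -0.82 to 0.38, edgeR adjusted p = 0.788), and without that library it was -0.01. Bcl2 and Bcl2l1 thus stood at opposite ends in this library, the first at its highest and the second at its lowest value of the 6. Per exon length, Bcl2l1 exceeded Bcl2 by 26.0 to 30.0 times in WT, by 1.40 times in the library labelled KO 1 and by 10.3 and 12.3 times in KO 2 and KO 3.

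The mouse carries several copies of the gene for the survival protein A1, an NF-kB target, and Bcl2a1b and Bcl2a1d are so alike that short reads can fit both. Their coding sequences, each 519 bases long in the annotation, are 98.8% identical and differ at 6 positions. The first 120 coding bases of each, which hold 3 of these 6 differences, are shown from GENCODE M21 transcripts (mm10, 5′ to 3′, differing bases in capitals), because they show how little sequence parts the counts of the 2 genes. Bcl2a1b is read from the plus strand at chr9:89199360-89199479 and Bcl2a1d from the minus strand at chr9:88731600-88731719.
Bcl2a1b: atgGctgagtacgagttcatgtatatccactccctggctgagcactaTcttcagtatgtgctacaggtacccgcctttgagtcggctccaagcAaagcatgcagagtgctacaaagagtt
Bcl2a1d: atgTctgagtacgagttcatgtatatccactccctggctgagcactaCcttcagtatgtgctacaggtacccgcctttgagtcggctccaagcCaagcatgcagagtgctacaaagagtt

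Of all 50-base words in the Bcl2a1b transcript 57.6% also occur in another copy, and for Bcl2a1d the share is 79.5%. Another gene of the annotation, Gm29094, also covers 49.1% of the Bcl2a1b exon bases on the same strand. How reads with several matches were counted is not given in the sources used here, so the split between the copies is uncertain.

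Both A1 genes had higher means in KO, with overlap between the groups. Bcl2a1b (chromosome 9, 89199209 to 89207827) was read at 27.1, 67.0 and 51.1 CPM in WT and at 51.7, 79.1 and 56.8 CPM in KO. Bcl2a1d (chromosome 9, 88723285 to 88731914) was read at 6.57, 18.0 and 17.5 CPM in WT and at 15.9, 31.5 and 25.7 CPM in KO. For both, WT 1 held the lowest value and KO 2 the highest, and the library labelled KO 1 fell inside the WT range. Log2 fold changes were 0.37 for Bcl2a1b (SE 0.32, edgeR adjusted p = 0.674) and 0.80 for Bcl2a1d (SE 0.39, edgeR adjusted p = 0.44). Without WT 1 these were 0.07 and 0.45, and without KO 2 they were 0.17 and 0.57. The size of both thus rested in part on the lowest WT and the highest KO library.

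Summed over both genes, which leaves aside the split between the pair but not reads shared with other copies, A1 stood at 33.6, 85.0 and 68.6 CPM in WT and at 67.6, 111 and 82.5 CPM in KO. The 2 genes moved together over the 6 libraries (r = 0.936, given as a description of genes with shared sequence). Counts of Bcl2a1b exceeded those of Bcl2a1d by 2.93 to 4.12 times in WT and by 2.21 to 3.26 times in KO. Of the remaining copies, Bcl2a1a was at 0.525 to 2.81 CPM in WT and 0.565 to 1.82 in KO, and Bcl2a1c had at most 9 counts in a library. Adding them put all 4 copies at 34.1 to 87.8 CPM in WT and 70.1 to 112 in KO. Macrophages also express A1. The 20 listed macrophage and dendritic cell markers, none at 0, made up 1060, 2090 and 3920 CPM of all counts in the WT libraries. In the KO libraries they made up 779, 776 and 4880 CPM. The macrophage sum was about equally low in KO 2 (776 CPM), the library with the most A1, and in the library labelled KO 1 (779 CPM). Within WT that sum was lowest in WT 1, the library with the least A1. Apoe alone made up 529 CPM of the sum in KO 2, 456 in the library labelled KO 1 and 645 in WT 1. Genes of the list differed in order. Itgax (30.0 CPM) and Itgam (20.1 CPM) were highest in the library labelled KO 1, while Csf1r was highest in KO 3 (469 CPM). The part of macrophages in the A1 values was not tested. The genes most like Bcl2a1d in profile were Pigh (r = 0.97), Ifngr2, Scrn3, Ccdc122 and Atraid (0.95).

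The BH3-only death genes shared no direction. Bcl2l11 encodes BIM, a main killer of B cells that lose survival signals (chromosome 2, 128126038 to 128162547, plus strand). Bcl2l11 was read at 79.1, 47.1 and 35.9 CPM in WT and at 55.4, 40.1 and 57.4 CPM in KO. All KO values fell inside the wide WT range. The difference was -0.09 on the log2 scale (SE 0.29, interval -0.72 to 0.55, edgeR adjusted p = 0.942), and its sign turned without WT 1 (0.28), without KO 2 (0.07) and with library totals in place of TMM (0.03).

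Bbc3, which encodes the p53 target PUMA, had the lowest level per exon length of the 3 BH3-only members (chromosome 7, 16308393 to 16318205, plus strand). Its levels were 11.0, 5.08 and 11.2 CPM in WT and 7.97, 9.95 and 7.29 CPM in KO, on 26 to 42 counts per WT library. The KO libraries sat between the low WT 2 and the other 2 WT libraries. KO and WT differed by -0.11 on the log2 scale (SE 0.38, interval -0.93 to 0.72, edgeR adjusted p = 0.944). Its sign turned without WT 1 (0.03), without WT 3 (0.07) and with limma-voom (0.02).

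Pmaip1 encodes NOXA, which binds MCL1 and promotes its loss (chromosome 18, 66458533 to 66465565, plus strand). Its transcript was read at 17.6, 17.6 and 9.98 CPM in WT and at 21.0, 21.7 and 23.3 CPM in KO. The groups did not overlap, on the TMM scale or by library totals, and the 3 KO values lay close together (SD 0.07 log2 units, against 0.47 in WT). Means were 15.1 ± 4.4 CPM in WT and 22.0 ± 1.16 in KO, and the log2 fold change was 0.54 (SE 0.28, interval -0.07 to 1.15). It did not pass (edgeR adjusted p = 0.446). The low WT 3 library weighed on the size, which was 0.32 without it. Unlike Bcl2, it was about the same without the library labelled KO 1 (0.57).

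Both effectors had lower means in KO and overlapping values. Bax (chromosome 7, 45461697 to 45466898, minus strand) was read at 117, 99.9 and 137 CPM in WT and at 90.7, 115 and 81.1 CPM in KO. Bak1 (chromosome 17, 27019810 to 27029009, minus strand) was read at 213, 174 and 290 CPM in WT and at 143, 197 and 155 CPM in KO. WT 3 was the highest library for both, and KO 2 lay among the WT values for both. Log2 fold changes were -0.30 for Bax (SE 0.22, edgeR adjusted p = 0.586) and -0.45 for Bak1 (SE 0.24, edgeR adjusted p = 0.453). Without WT 3 they were -0.19 and -0.23. The annotation has Ggnbp1 on the other strand over part of the Bak1 exons (in 2 gene entries, 7.35% and 18.2% of the bases), and Gm45808 on the same strand over 12.2% of the Bax exons. Ggnbp1 itself had few counts, between 9 and 54 per library, against 810 to 2792 for Bak1.

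Per exon length, transcripts for survival proteins were led by Mcl1 and those for death by the effectors. Levels in RPKM (TMM-scaled CPM per kilobase of merged exons) were highest in WT for Mcl1 (123 ± 34.8), Bak1 (93.7 ± 24.4), Bax (74.8 ± 11.7) and Bcl2a1b (59.2 ± 24.6). Neighbours among these 4 overlapped in their WT ranges. Bcl2a1d followed at 16.2 ± 7.47, clear of Bcl2a1b in every library. Bcl2l11, Bcl2l1, Pmaip1 and Bbc3 came next in WT, from 6.73 ± 2.79 down to 4.29 ± 1.64, and each overlapped the next. Bcl2a1d and Bcl2l11 also overlapped there, since in WT 1 Bcl2a1d (7.61) lay below Bcl2l11 (9.85). Bcl2 was last in all 6 libraries, at 0.224 ± 0.051 in WT and 1.23 ± 1.16 in KO, and its range was clear of that of Bbc3 in both groups. In KO, Mcl1, at a mean of 141, was again first, and its range was clear of that of the second, Bcl2a1b (76.6 ± 17.8). Among tested genes with a length, Mcl1 lay above 96.6% and Bcl2 above 8.96% by mean RPKM over the 6 libraries. With the longest transcript as the length, Bax exceeded Bak1 and Bcl2l1 exceeded Bcl2l11 in WT. In KO, Bax (86.8) then exceeded Bcl2a1b (76.6), and Bcl2l11 (10.1) and Bcl2l1 (9.66) exceeded Pmaip1 (8.08), so these orders rest on the choice of length.

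**Figure D3:**
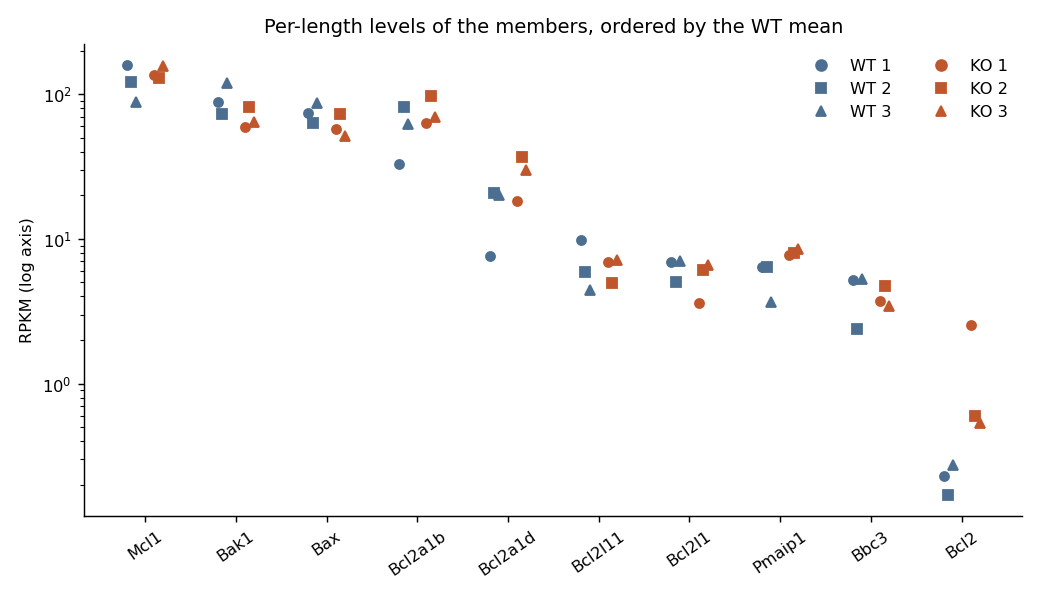
RPKM of each member in each library on a log axis, ordered by the WT mean, with WT in blue and KO in orange. Mcl1 leads with a WT mean of 123, and Bcl2 is last in every library, at 0.171 to 0.272 in WT and 0.531 to 2.56 in KO.

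Summed by role, survival transcripts stood at 206, 230 and 178 RPKM in WT and at 223, 270 and 263 in KO. Of this sum Mcl1 made up 49.5 to 76.7% in WT and 48.2 to 60.7% in KO, the A1 pair 19.8 to 46.4% and 36.6 to 49.3%, and Bcl2l1 2.21 to 3.96% and 1.61 to 2.49%. The share of Bcl2 was 0.074 to 0.153% in WT and 1.15, 0.22 and 0.202% in KO, so even in the library labelled KO 1 it was a small part of the survival transcripts. Effector transcripts summed to 163, 136 and 207 RPKM in WT and to 117, 155 and 116 in KO. Their ratio to survival transcripts was 0.791, 0.591 and 1.16 in WT and 0.524, 0.572 and 0.44 in KO. The 3 KO ratios all lay below the lowest WT ratio, by a narrow margin for KO 2 against WT 2. Neither Bax nor Bak1 separated the groups by itself. Of all single genes tested 18.0% did so in either direction, but how often ratios of such sums do was not computed. BH3-only transcripts stood at 0.064 to 0.104 of the survival sum in WT and 0.065 to 0.082 in KO, with full overlap. These sums compare RNA and say nothing of protein, and no test was run on them because the members were chosen with results of these data known.

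Members differed in how much they varied among mice of a group. The median within-group SD of log2 CPM was 0.44 for the members and 0.33 for all genes tested in WT, and 0.27 and 0.25 in KO. Over the 6 libraries the range was widest for Bcl2 (3.73 log2 units), Bcl2a1d (2.23) and Bcl2a1b (1.54) and narrowest for Bax (0.75) and Mcl1 (0.84). WT 3 held the highest value of 4 members (Bcl2l1, Bbc3, Bax and Bak1) and the lowest of 3 (Mcl1, Bcl2l11 and Pmaip1). No library was thus high or low for the whole family.

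**Figure D4:**
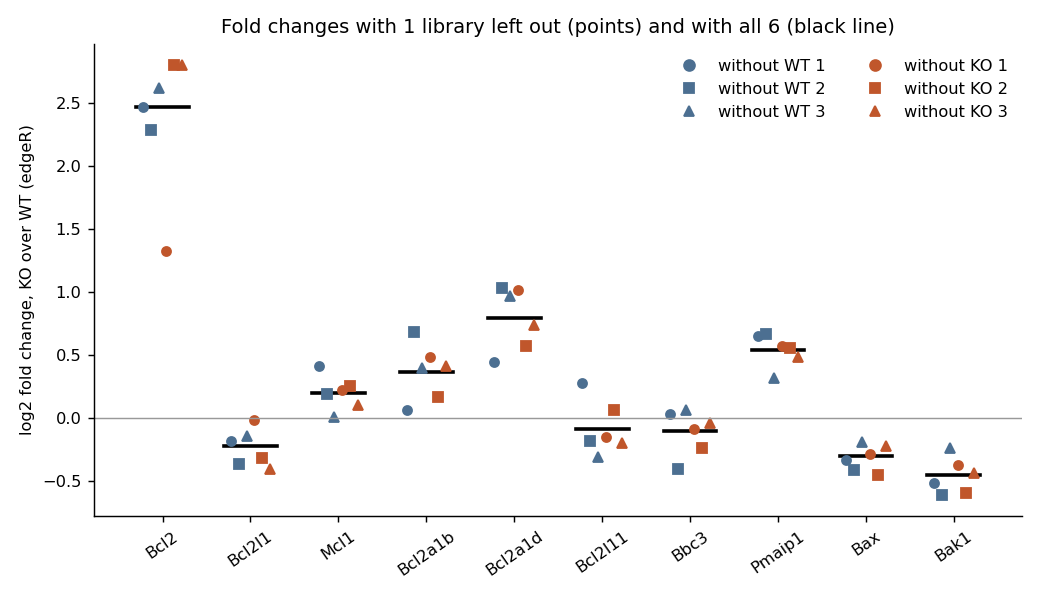
Log2 fold change of each member (KO over WT, edgeR) with all 6 libraries (black line) and with each library left out (points, colour and shape naming the library). Bcl2 stays above 0 throughout and drops from 2.47 to 1.33 without the library labelled KO 1, while Bcl2l11 and Bbc3 cross 0.

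Of 16 further family genes listed, 14 were in the table and 10 were tested. None passed, 2 lay above 0 and 8 below, and the median log2 fold change was -0.32 beside 0.01 over all genes. Without the library labelled KO 1 the counts were 4 and 6 and the median -0.26. Bcl2l2, which encodes the survival protein BCL-W, had the smallest adjusted p of the family. Bcl2l2 was read at 2.89, 4.30 and 3.43 CPM in WT and at 9.49, 9.39 and 11.1 CPM in KO. The groups were far apart and each was narrow, and the library labelled KO 1 lay beside the other KO libraries. The log2 fold change was 1.48 (SE 0.36, interval 0.71 to 2.26) and did not pass (edgeR adjusted p = 0.175). It ran from 1.35 to 1.66 over the 15 alternatives, in which adjusted p was 0.088 to 0.769. WT values rested on 11 to 22 counts, and Gm20521 covers 13.3% of the Bcl2l2 exon bases on the same strand.

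Bad, a BH3-only gene whose protein is silenced by phosphorylation under growth factor signals, was lower in each KO library. It was read at 62.5, 64.7 and 103 CPM in WT and at 29.7, 60.1 and 37.0 CPM in KO, with KO 2 just below the lowest WT library. On the log2 scale the difference was -0.86 (SE 0.30, interval -1.52 to -0.19, edgeR adjusted p = 0.30). Gpr137 covers 20.5% of the Bad exon bases on the other strand. Bmf, a BH3-only gene of B cell homeostasis, was at 50.9, 49.1 and 61.7 CPM in WT and at 19.8, 55.9 and 64.0 CPM in KO. Only the library labelled KO 1 was low, as for Bcl2l1. Bid, whose protein is cut by caspase 8 and then activates BAX and BAK, was at 243, 204 and 176 CPM in WT and at 169, 232 and 191 CPM in KO, with a log2 fold change of -0.08 (SE 0.21).

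The remaining tested family genes were Bcl2l12 (-0.56, SE 0.28), Bcl2l13 (-0.18, SE 0.19), Bcl2l14 (0.08, SE 0.36), Bcl2a1a (-0.62, SE 0.71) and the mitophagy receptor genes Bnip3 (-0.88, SE 0.50) and Bnip3l (-0.42, SE 0.33), all as log2 fold changes. Their WT and KO values overlapped. Bik, Bok, Bcl2l15 and Bcl2a1c were too low to test, with 21, 1, 17 and 23 counts in all over the 6 libraries. Hrk and Bcl2l10 were not analysed here.

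**Figure D5:**
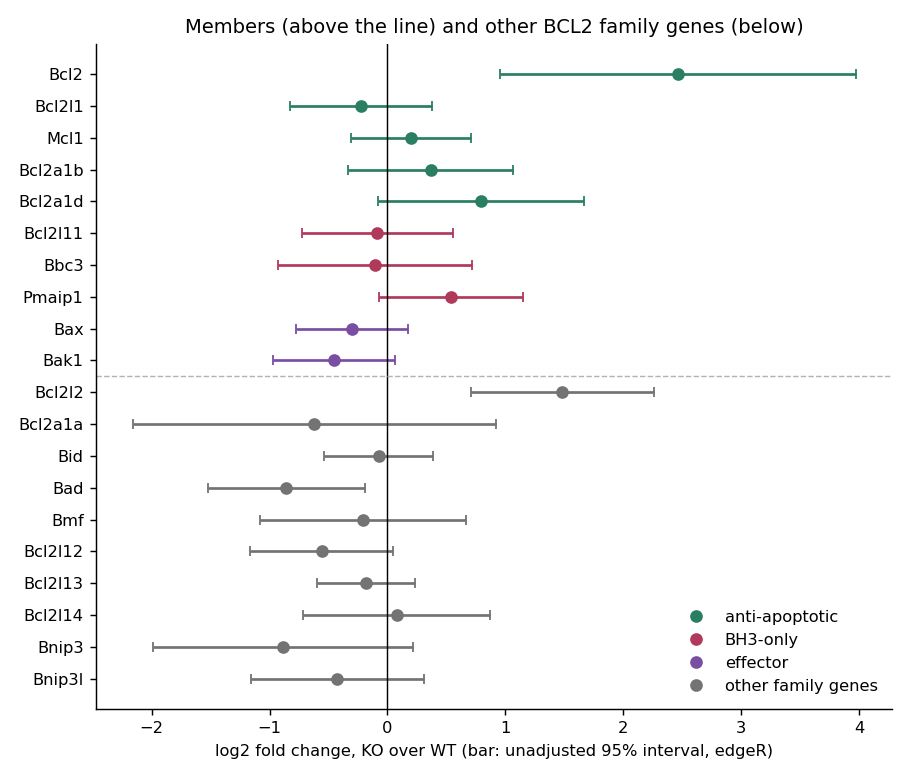
Log2 fold change, KO over WT, with unadjusted 95% intervals (edgeR) for the 10 members above the dashed line and the 10 other tested family genes below it, coloured by role. The intervals of Bcl2 (0.95 to 3.98), Bcl2l2 (0.71 to 2.26) and Bad (-1.52 to -0.19) leave out 0, and no gene passed after adjustment.

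The 22 listed genes of the apoptosome, caspases, their inhibitors and the outer membrane channels split evenly in direction. All 22 were tested, none passed, 11 lay above 0 and 11 below, and the median log2 fold change was 0.006. Without the library labelled KO 1 the counts were 12 and 10 and the median 0.026. At an unadjusted p under 0.05, 4 were higher and 2 lower, and over all genes these shares were 7.1% and 5.5%. WT and KO values did not overlap for 4 genes that were higher and 5 that were lower. Over all genes tested 18.0% separated in either direction, and no test was run on this count. Casp8, the initiator caspase of death receptors, was at 78.3, 77.8 and 66.7 CPM in WT and at 118, 124 and 105 CPM in KO. Its groups did not overlap, and the log2 fold change was 0.64 (SE 0.19, edgeR adjusted p = 0.266). Log2 fold changes were -1.28 for Endog, a mitochondrial nuclease gene (SE 0.45), -0.54 for the outer membrane channel gene Vdac1 (SE 0.19) and 0.65 for Birc6, a large inhibitor of apoptosis (SE 0.23). Adjusted p for these 3 was 0.299 to 0.304 (edgeR). Endog rested on 15 to 31 counts per library, and with all libraries thinned to the smallest total its log2 fold change was -0.80.

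Of 20 listed regulators of family genes and proteins, all were tested and none passed. A total of 13 lay above 0 and 7 below, with a median of 0.10 beside 0.01 over all genes. Without the library labelled KO 1, 19 were tested, 11 lay above 0 and 8 below, and the median was 0.015. Dynll1, a dynein light chain that can hold BIM, was at 223, 313 and 222 CPM in WT and at 119, 200 and 124 CPM in KO (log2 fold change -0.77, SE 0.25, edgeR adjusted p = 0.284). Its values did not overlap. Huwe1, a ubiquitin ligase that targets MCL1, came out at 0.66 on the log2 scale (SE 0.24), Usp9x, a deubiquitinase that stabilises MCL1, at 0.53 (SE 0.27) and Akt1, a kinase that phosphorylates BAD, at -0.46 (SE 0.23). Values of these 3 genes overlapped between the groups. Bcl6, the repressor of Bcl2, was at 320, 232 and 213 CPM in WT and at 262, 207 and 274 CPM in KO.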

How the data were processed

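The deposited table holds raw counts for each gene and mouse, which the authors made with CASAVA, STAR 2.5.2 and featureCounts 1.5.2 on mm10, per the submitters' processing notes. Not given in the sources used here: which annotation was counted on, the strand setting, and how multi-mapping reads were treated. Where no count was seen, up to 3 counts are allowed for, worth 0.543 to 0.885 CPM in a WT library and 0.209 to 0.243 in a KO library. No libraries of a group looked like repeats (chi-square per degree of freedom 14.4 to 50.9).

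The whole table was fitted in R 4.3.3 with edgeR 4.0.16 (filterByExpr, TMM, robust glmQLFit and glmQLFTest, two-sided, no covariates), and the members were read from that fit. Tests were first run on simulated data. Standard errors and intervals were derived from the F statistic. The common biological variation between mice came to 30.8%. Lengths, coordinates and sequences came from GENCODE M21, of the same build, with 98.2% of tested genes matched. Log2 CPM used a prior count of 2. The alternatives were other scalings, no filter or at least 5 CPM in 3 libraries, DESeq2 1.42.0, limma-voom (limma 3.58.1), thinning to equal depth, a replicate block and each library left out.

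The members and lists were chosen with earlier results of these data known. Named were the 10 members, Kdm1a, the other family genes and up to 4 genes with the smallest p of each other list, and the profile genes come from a fixed rule of the 5 highest correlations for the 2 members of widest range. Bcl6 was named beyond the rule, after its values were seen. T cell markers were also listed: no library held over 15 counts of Cd3d or Cd3g, and 7 of the 13 in the table were at 0 in some library. The T cell list summed to 577 to 733 CPM in WT and 611 to 691 in KO. Most of that sum came from Cxcr5 (244 to 338 CPM over the 6 libraries), Lck (149 to 241) and Cd2 (107 to 169). Cd3d and Cd3g reached at most 1.22 CPM, so the sum should not be read as T cell RNA alone.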

Additional observations from a re-analysis of the deposited data

How the results depend on the processing

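Over 15 alternatives (other scalings, filters and tests, equal depth, a replicate block and each library left out) no family member passed, except 1, Bcl2, with DESeq2. The number of genes called in the whole table was 9, but 18 with library totals as scaling, 93 with no filter, 127 with DESeq2 and 21 with the replicate block. With single libraries left out it ran from 1 to 24: it was 1 in the fits lacking WT 2 or WT 3, 3 lacking KO 2, 18 lacking KO 3 and 24 lacking KO 1. The causes were not tested. Of 29 named genes, 23 kept their direction wherever they were tested. With library totals as scaling, which raised the log2 fold changes of all genes by a median of 0.119, Bcl2l11 was at 0.0272 and Bid at 0.031, and with limma-voom Bbc3 was at 0.0171. With single libraries left out, log2 fold changes ran from -0.309 to 0.279 for Bcl2l11, -0.404 to 0.0681 for Bbc3, -0.203 to 0.0382 for Bid, -0.525 to 0.143 for Bmf, -0.235 to 0.206 for Bcl2l14 and -0.705 to 0.0519 for Bnip3l. With the longest transcript as length, levels of 5 members moved by more than 1 SD in a group (Bax, Bcl2l11, Bcl2l1, Bbc3 and Bcl2). The groups of Bcl2a1d did not overlap by library totals but did on the TMM scale.

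The replicate numbers were not shown to pair the mice. Deviations from the group means correlated at 0.341, -0.0525 and 0.443 across genes for samples of equal number, and WT 2 correlated best with KO 3 (0.143). With the replicate block the log2 fold change of Bcl2 was 2.12 (edgeR adjusted p = 0.171). Depth limits Bcl2, whose WT values rest on 8 counts per library.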
